A study of Mus musculus with 54 samples.

Results

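The genes described here mark regulatory T cells and T helper 2 (Th2) cells, CD4+ lineages that share signals with Th17 cells: Foxp3, Ikzf2, Ikzf4, Lrrc32, Nrp1, Entpd1, Nt5e, Gata3 and Il4. All 9 were found by symbol among the 45802 genes of the deposited table, and each lies on a different mouse chromosome. RNA was sequenced from T cells cultured toward the Th17 fate, the helper cells that make interleukin 17. The starting cells were CD4+ CD25- T cells (purity about 90%) from spleen and lymph nodes of C57BL/6 mice, whose age and number per experiment the labels do not give. All 3 groups were stimulated through CD3 and CD28 with TGF-β1 (2 ng/mL), IL-6 (7.5 ng/mL) and IL-1β (50 ng/mL), and with antibodies that block IL-4 and IFN-γ (5 µg/mL each). The groups received for 96 h the vehicle DMSO, linezolid (100 µM), an antibiotic that also inhibits protein synthesis in mitochondria, or Arg C (P2A7 in the sample names; 60 mM as labelled, a unit that could not be checked). The doses differ, and each compound was used at 1 dose. On day 4 live CD4+ cells were separated by the dilution of CellTrace Violet into cycle 2 (1 division), cycle 3 (2 divisions) and cycle 4 (3 or more). With 2 experiments this gave 18 samples, 6 per drug, each the mean of 3 technical replicates. The cycles of a drug within an experiment are fractions of treated cells and not separate treatments, so each drug had 2 independent units and p-values over its 6 samples can be too small.

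Foxp3 is the transcription factor that defines regulatory T cells. TGF-β induces it in activated CD4+ T cells, and IL-6 turns such cells toward the Th17 fate instead. Ikzf2 (Helios) and Ikzf4 (Eos) encode Ikaros family zinc finger factors of regulatory T cells, Eos being a corepressor that works with Foxp3. Lrrc32 encodes GARP, which holds latent TGF-β on the cell surface, and Nrp1 a receptor of semaphorins and growth factors. Entpd1 (CD39) and Nt5e (CD73) encode ectoenzymes that act in sequence on extracellular ATP and yield adenosine. Gata3 is the master factor of Th2 cells and is used more widely in T cells, and Il4 encodes the signature Th2 cytokine.

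The promoters of Foxp3 and Gata3 are shown because Foxp3 was higher with both drugs and Gata3 followed the number of divisions. RefSeq promoter windows (build GRCm38.p6, 250 bases before the start and 50 from it on) were matched for 6 of the 9 genes, and Ikzf2, Ikzf4 and Lrrc32 were not matched. Capitals mark matches on either strand to any of 6 motifs. Zinc finger factors of the Gata3 family were searched as AGATAA, and the forkhead family of Foxp3 as TGTTTAC. The hypoxia response core was ACGTG, and the AP-1 motif of activated T cells was TGANTCA. The STAT motif was TTCNNNGAA, and the core bound by Ikaros proteins was TGGGAA. The Foxp3 windows are chrX:7579426-7579725 and chrX:7580233-7580532 on the plus strand, and the Gata3 window is chr2:9878551-9878850 on the minus strand.
Foxp3 start 1: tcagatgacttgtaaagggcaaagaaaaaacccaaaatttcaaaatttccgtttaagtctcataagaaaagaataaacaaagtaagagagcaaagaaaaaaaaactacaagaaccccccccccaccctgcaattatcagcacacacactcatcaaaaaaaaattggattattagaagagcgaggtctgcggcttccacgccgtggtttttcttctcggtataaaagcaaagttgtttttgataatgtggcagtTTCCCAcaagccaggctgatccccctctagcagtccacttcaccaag
Foxp3 start 2: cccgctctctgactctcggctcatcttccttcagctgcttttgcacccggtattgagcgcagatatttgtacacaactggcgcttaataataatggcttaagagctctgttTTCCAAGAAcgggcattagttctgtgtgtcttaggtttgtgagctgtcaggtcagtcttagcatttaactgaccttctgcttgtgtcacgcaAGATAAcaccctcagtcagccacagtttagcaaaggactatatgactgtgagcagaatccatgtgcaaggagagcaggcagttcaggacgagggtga
Gata3: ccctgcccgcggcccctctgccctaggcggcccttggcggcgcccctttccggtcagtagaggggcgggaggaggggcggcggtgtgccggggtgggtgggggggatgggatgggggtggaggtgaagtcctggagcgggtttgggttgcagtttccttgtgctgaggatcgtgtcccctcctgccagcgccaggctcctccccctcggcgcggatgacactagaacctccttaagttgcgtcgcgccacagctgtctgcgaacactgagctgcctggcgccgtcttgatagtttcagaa
The first Foxp3 window held 1 match, to the Ikaros core, which 25.6% of 32851 promoter windows of this length held. The second held 1 GATA match (11.2% of windows) and 1 STAT match (8.30%), and the Gata3 window held 0. The forkhead, hypoxia response and AP-1 letters were in 3.65%, 19.6% and 7.81% of windows. These are matches of letters and show no binding.

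Values are RPKM, reads per kilobase of gene model scaled to the size of the library, and the 3 libraries of a sample held 24268987 to 36910109 reads together. Tests were limma fits to log2(RPKM + 1) of the 11004 genes that reached 0.5 RPKM in 2 or more samples, with the experiment as a block. A gene was called at a Benjamini-Hochberg adjusted p below 0.05. Fitted folds of genes at a few RPKM or less understate the change. For Foxp3, Ikzf4, Lrrc32, Nrp1 and Entpd1 against DMSO over all cycles, folds on recovered reads (limma-voom) therefore stand beside them. Most genes differed between drugs: the all-gene median log2 fold change stood at -0.47 for Arg C and -0.21 for linezolid. Median-ratio scaling brought these medians to 0.023 and 0.022. Genes called higher and lower numbered 1820 and 7699 with Arg C (4644 and 4432 with median-ratio scaling, of 10898 genes) and 2307 and 5996 with linezolid (4190 and 3872). Between Arg C and linezolid they numbered 841 and 6576 (3554 and 3224). Ribosomal protein genes took 13.4 to 14.6% of gene reads in DMSO, 22.1 to 25.4% with Arg C and 16.3 to 21.6% with linezolid, and the part of this share in the results was not tested. Il17a, the defining Th17 cytokine, was at 14.9 to 64.5 RPKM in DMSO, 1.72 to 5.45 with Arg C and 1.91 to 7.28 with linezolid.

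Over all cycles, 1 of the 7 tested members rose and 4 fell with Arg C against DMSO, where 86.5% of all genes were called (16.5% higher and 70% lower). With linezolid 3 rose and 3 fell, where 75.5% of genes were called (21% higher and 54.5% lower). Against linezolid, Arg C left 3 members lower and 0 higher, where 67.4% of genes were called (7.64% higher and 59.8% lower). The median log2 fold changes of the 7 were -0.65, -0.077 and -0.19, beside -0.47, -0.21 and -0.23 for all genes. With median-ratio scaling 3 rose and 4 fell with Arg C, 3 rose and 3 fell with linezolid, and 1 was higher and 2 lower for Arg C against linezolid. At cycles 2, 3 and 4, 5, 5 and 4 members were called with Arg C (75.6%, 77.2% and 75.2% of all genes) and 5, 4 and 3 with linezolid (52.8%, 61.4% and 58.3%). Between Arg C and linezolid 3, 1 and 1 were called (52%, 36.3% and 36.6%). Both drugs were compared with the same DMSO samples. Ikzf2 and Il4 reached 0.5 RPKM in 1 sample each and were not tested. Foxp3 passed that filter through drug-treated samples alone, and Nrp1 through 4 DMSO samples and 1 linezolid sample, so these counts do not stand for all 9 genes.

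**Figure D1:**
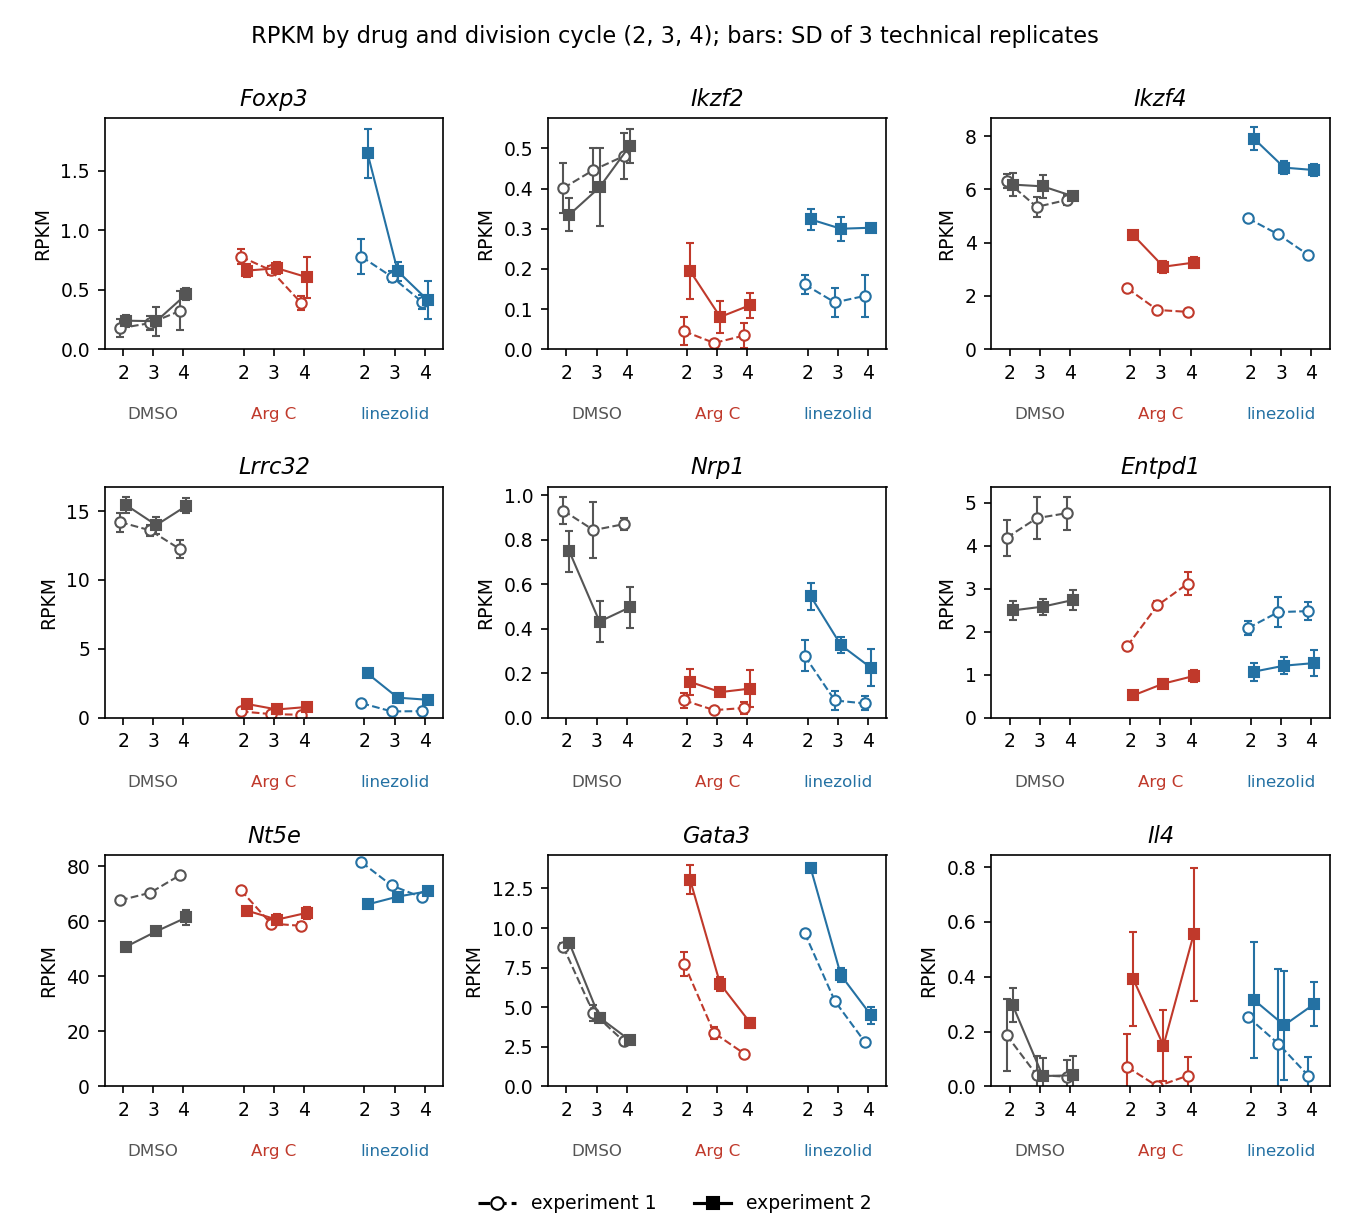
RPKM of the 9 genes (y axes, each from 0) by division cycle (x axes) in DMSO, Arg C and linezolid, with open circles for experiment 1, filled squares for experiment 2 and bars for the SD of 3 technical replicates, ended at 0. Lrrc32 lies between 12.2 and 15.4 in DMSO and at 3.21 or below with either drug, Gata3 falls from cycle 2 to cycle 4 in every line, and Foxp3 is highest in the linezolid sample of experiment 2 at cycle 2.

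Foxp3 RNA was scarce in all samples and higher with both drugs. In DMSO the lowest, median and highest values were 0.177, 0.238 and 0.463 RPKM. With Arg C they were 0.389, 0.662 and 0.778 RPKM, and with linezolid 0.400, 0.632 and 1.65 RPKM. The ranges overlapped through 1 DMSO sample, that of experiment 2 at cycle 4, and Foxp3 exceeded the DMSO sample of the same experiment and cycle in 6 of 6 pairs with Arg C and in 5 of 6 with linezolid. Foxp3 rose by 0.35 ± 0.074 with Arg C (log2 ± SE, adjusted p = 0.000587, limma) and by 0.42 ± 0.074 with linezolid (adjusted p = 0.000187). On recovered reads, 202, 450 and 569 in the 18 libraries of DMSO, Arg C and linezolid, the log2 folds were 1.23 ± 0.20 and 1.34 ± 0.20. Foxp3 entered these tests through 5 Arg C and 4 linezolid samples at or above 0.5 RPKM, and 0 DMSO samples. On recovered reads with no filter, added after the values were seen, the folds were 1.23 ± 0.20 (adjusted p = 0.000138, limma-voom) and 1.34 ± 0.20 (adjusted p = 0.000106). Arg C and linezolid differed by -0.072 ± 0.074 (adjusted p = 0.405, limma), which does not show that they act alike. In experiment 2 alone the Arg C difference was 0.33 ± 0.18 and was not called (adjusted p = 0.114, limma).

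The calls for Foxp3 came from the cells with fewer divisions. At cycle 2 it was 0.177 and 0.240 RPKM in DMSO (experiments 1 and 2), 0.778 and 0.660 with Arg C, and 0.777 and 1.65 with linezolid. At cycle 4 it was 0.323 and 0.463, 0.389 and 0.604, and 0.400 and 0.412 RPKM. DMSO lay apart from the drugs at cycle 2 and overlapped them at cycle 4. Foxp3 rose at cycle 2 by 0.51 ± 0.13 with Arg C and 0.84 ± 0.13 with linezolid, and at cycle 3 by 0.45 ± 0.13 and 0.41 ± 0.13. At cycle 4 the differences were 0.10 ± 0.13 (adjusted p = 0.482, limma) and 0.015 ± 0.13 (adjusted p = 0.928), and with median-ratio scaling that of Arg C was called (0.30, adjusted p = 0.0483). The change from cycle 2 to cycle 4 differed from that in DMSO by -0.83 ± 0.18 with linezolid (adjusted p = 0.0228, limma), the 1 member called where 5.39% of genes were called. With no experiment block limma called 0 genes there (1605 at an unadjusted p under 0.05). With Arg C this difference was -0.41 ± 0.18 (adjusted p = 0.206, limma), and 0 members were called against 7.92% of genes. The 2 drugs' courses differed by 0.42 ± 0.18 (adjusted p = 0.732, limma), with 0 members and 0% of genes called (714 genes at an unadjusted p under 0.05, and 0 called by limma-voom).

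The linezolid sample of experiment 2 at cycle 2 stood apart, with 220 Foxp3 reads, the most of any sample. Without it, Foxp3 was 0.34 ± 0.052 higher with linezolid over all cycles (adjusted p = 0.000116, limma), and its course still differed from that in DMSO (-0.57 ± 0.13, adjusted p = 0.0412). The difference of Arg C from linezolid at cycle 2 (-0.34 ± 0.13, adjusted p = 0.0427, limma) was no longer called without it (-0.075 ± 0.10, adjusted p = 0.602). Ppp1r3f overlaps the Foxp3 gene on the opposite strand. It was also highest in this sample, at 2.49 RPKM against at most 1.17 in the other linezolid samples. It ranged over 1.16 to 1.62 RPKM in DMSO and 0.224 to 0.767 with Arg C. Ccdc22, which also overlaps Foxp3 on the opposite strand, was more abundant than Foxp3 in every group, at 5.70 to 6.76 RPKM in DMSO, 6.56 to 7.51 with Arg C and 5.98 to 6.77 with linezolid. The sources used here do not say whether counting used strand, so reads of shared stretches cannot be told apart.

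Ikzf2 RNA, for Helios, was low in all samples and lowest with Arg C. Its lowest, median and highest values were 0.335, 0.425 and 0.506 RPKM in DMSO. They were 0.0157, 0.0627 and 0.195 with Arg C and 0.117, 0.231 and 0.323 with linezolid. Neither drug's range overlapped that of DMSO, though the highest linezolid value lay close to the lowest DMSO value. Arg C was below the matched linezolid sample in 6 of 6 pairs. The linezolid and DMSO means were 0.137 and 0.443 RPKM in experiment 1 and 0.309 and 0.415 RPKM in experiment 2. The 18 libraries of each group held 833 Ikzf2 reads in DMSO, 141 with Arg C and 443 with linezolid. On recovered reads with no filter, an alternative added after the values were seen, the log2 fold was -2.61 ± 0.37 with Arg C (adjusted p = 3.14e-05, limma-voom), -0.89 ± 0.28 with linezolid (adjusted p = 0.0169) and -1.72 ± 0.39 for Arg C against linezolid (adjusted p = 0.00298). By cycle, this fit did not call linezolid against DMSO at cycle 2, 3 or 4 (adjusted p = 0.460, 0.143 and 0.0788, limma-voom).

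Ikzf4 RNA, for Eos, was lower with Arg C than with DMSO or linezolid. It ranged from 5.34 over a median of 5.93 to 6.31 RPKM in DMSO. With Arg C it ranged from 1.40 over 2.69 to 4.28 RPKM, and with linezolid from 3.54 over 5.82 to 7.90 RPKM. Arg C did not overlap DMSO. It overlapped linezolid, though not within an experiment. Linezolid lay below the DMSO samples of experiment 1 (3.54 to 4.91 RPKM) and above those of experiment 2 (6.73 to 7.90 RPKM). Ikzf4 fell by 0.98 ± 0.12 with Arg C (adjusted p = 4.44e-06, limma) and differed by -0.077 ± 0.12 with linezolid (adjusted p = 0.567). For Arg C against linezolid it fell by 0.90 ± 0.12 (adjusted p = 3.66e-05, limma), lower in 6 of 6 pairs and called at cycles 2, 3 and 4 (-0.80, -1.02 and -0.89). On recovered reads the folds were -1.23 ± 0.16 with Arg C, -0.071 ± 0.15 with linezolid and -1.16 ± 0.17 for Arg C against linezolid. With median-ratio scaling the Arg C difference over all cycles was -0.47 from DMSO and -0.63 from linezolid, both called. With that scaling the Arg C difference from DMSO at cycle 2 was not called (-0.27, adjusted p = 0.153, limma).

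Of the 5 Ikaros family genes 4 were tested, Ikzf4 among them. With Arg C 4 fell, beside 70% of all genes, and with linezolid 1, Ikzf3 (Aiolos, a factor of lymphocytes), beside 54.5%. With median-ratio scaling 2 fell and 1, Ikzf5, rose with Arg C, and 0 fell and 2 rose with linezolid. Ikzf3 was at 10.3 ± 0.434 RPKM in DMSO, 4.94 ± 1.08 with Arg C and 8.76 ± 2.36 with linezolid (SD, n = 6), and its fall with linezolid (0.25 ± 0.089) was gone with median-ratio scaling (0.015). Ikzf1 (Ikaros) was at 71.8 ± 1.13 RPKM in DMSO, 45.0 ± 8.61 with Arg C and 71.5 ± 9.48 with linezolid.

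Lrrc32 RNA, for GARP, was far lower with both drugs than in DMSO. In DMSO it ranged from 12.2 over a median of 14.1 to 15.4 RPKM. It ranged from 0.220 over 0.533 to 1.00 RPKM with Arg C and from 0.462 over 1.18 to 3.21 RPKM with linezolid. Neither drug overlapped DMSO, and Arg C was below the matched linezolid sample in 6 of 6 pairs. The DMSO mean was 25.4 times the Arg C mean and 10.6 times the linezolid mean. Lrrc32 fell by 3.30 ± 0.11 with Arg C (adjusted p = 6.56e-11, limma), by 2.79 ± 0.11 with linezolid (adjusted p = 4.87e-10) and by 0.51 ± 0.11 for Arg C against linezolid (adjusted p = 0.00169). On recovered reads the folds against DMSO were -4.74 ± 0.31 and -3.57 ± 0.25. By cycle, Arg C and linezolid differed with a call at cycle 2 (-0.78 ± 0.20, adjusted p = 0.00642, limma) and not without the linezolid sample of experiment 2 at cycle 2 (-0.47 ± 0.20, adjusted p = 0.0993), where Lrrc32 stood at 3.21 RPKM.

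Other genes of TGF-β activation and signalling are given beside GARP. Of 18 tested, Lrrc32 included, 16 fell and 0 rose with Arg C (median log2 fold change -1.05), beside 70% and 16.5% of all genes, and 10 fell and 2 rose with linezolid (median -0.21), beside 54.5% and 21% of all genes. With median-ratio scaling 13 fell and 4 rose, and 5 fell and 7 rose. The ligand gene Tgfb3 was at 19.8 ± 4.78 RPKM in DMSO, 0.193 ± 0.106 with Arg C and 0.522 ± 0.206 with linezolid (SD, n = 6). Itgav, an integrin chain gene whose protein frees TGF-β from its latent form, was at 7.50 ± 0.582 RPKM in DMSO, 2.18 ± 0.903 with Arg C and 4.81 ± 1.60 with linezolid. The signal transducer gene Smad3 fell by 1.60 ± 0.13 with Arg C and Furin, for a protease that matures TGF-β, by 0.87 ± 0.039 with linezolid. With linezolid the receptor gene Tgfbr1 rose by 0.58 ± 0.18 and the inhibitor gene Smad7 by 0.27 ± 0.072.

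Nrp1 RNA was below 1 RPKM in all samples and lower with the drugs. In DMSO it ranged from 0.433 over a median of 0.796 to 0.932 RPKM. It ranged from 0.0343 over 0.0970 to 0.162 RPKM with Arg C and from 0.0645 over 0.251 to 0.546 with linezolid. Arg C did not overlap DMSO and linezolid did, though each drug was below the matched DMSO sample in 6 of 6 pairs. Nrp1 fell by 0.65 ± 0.088 with Arg C (adjusted p = 1.47e-05, limma) and by 0.46 ± 0.088 with linezolid (adjusted p = 0.000412). On recovered reads, 898, 110 and 325 in the libraries of DMSO, Arg C and linezolid, the folds were -2.88 ± 0.49 and -1.59 ± 0.40. Nrp1 entered these tests through 4 DMSO samples and 1 linezolid sample at or above 0.5 RPKM, and 0 Arg C samples. On recovered reads with no filter, added after the values were seen, the folds were -2.89 ± 0.48 (adjusted p = 0.000122, limma-voom) and -1.60 ± 0.39 (adjusted p = 0.00396). Arg C and linezolid differed by -0.18 ± 0.088 (adjusted p = 0.0811, limma), and on recovered reads by -1.29 ± 0.54, which was called (adjusted p = 0.0493, limma-voom). With no filter that difference was not called (-1.29 ± 0.52, adjusted p = 0.0685, limma-voom). At cycle 2 the linezolid fall was called narrowly (-0.39 ± 0.15, adjusted p = 0.0495, limma) and not with median-ratio scaling (-0.28, adjusted p = 0.0939). On recovered reads it was not called at cycle 2 (adjusted p = 0.192, limma-voom) or cycle 3 (adjusted p = 0.0724).

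Of 11 tested neuropilin, semaphorin and plexin genes, Nrp1 included, 11 fell and 0 rose with Arg C (median log2 fold change -0.87), beside 70% and 16.5% of all genes, and 10 fell and 0 rose with linezolid (median -0.46), beside 54.5% and 21% of all genes. With median-ratio scaling 9 fell and 1 rose, and 8 fell and 1 rose. Vegfa, a ligand gene of neuropilins, was at 17.5 ± 2.90 RPKM in DMSO, 4.47 ± 0.535 with Arg C and 5.10 ± 1.00 with linezolid. The semaphorin gene Sema4a was at 5.85 ± 0.612 RPKM in DMSO, 1.64 ± 0.139 with Arg C and 2.71 ± 0.603 with linezolid (SD, n = 6).

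The ectoenzyme genes Entpd1 and Nt5e differed from each other. Entpd1 RNA, for CD39, ranged from 2.50 over a median of 3.46 to 4.76 RPKM in DMSO. It ranged from 0.521 over 1.32 to 3.12 RPKM with Arg C and from 1.07 over 1.68 to 2.48 with linezolid. Linezolid did not overlap DMSO, though its highest value lay close to the lowest DMSO value. Within each experiment the Arg C samples also lay below all DMSO samples. Entpd1 fell by 0.87 ± 0.077 with Arg C (adjusted p = 2.27e-07, limma) and by 0.72 ± 0.077 with linezolid (adjusted p = 2.51e-06), and the drugs differed by -0.14 ± 0.077 (adjusted p = 0.116). On recovered reads the folds against DMSO were -1.25 ± 0.14 with Arg C and -1.03 ± 0.13 with linezolid. With median-ratio scaling they were -0.41 and -0.49, both called. The Arg C difference was then not called at cycle 3 (-0.35, adjusted p = 0.0858, limma) or cycle 4 (-0.22, adjusted p = 0.269).

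Nt5e RNA, for CD73, had the highest RPKM of the 9 genes, and its direction depended on the scaling. It ranged from 50.7 over a median of 64.5 to 76.8 RPKM in DMSO. It ranged from 58.3 over 61.8 to 71.3 RPKM with Arg C and from 66.1 over 69.9 to 81.4 with linezolid. The groups overlapped, and Arg C was below the matched linezolid sample in 6 of 6 pairs. With Arg C the log2 difference was -0.016 ± 0.069 (adjusted p = 0.834, limma), and 0.64 and called with median-ratio scaling. With linezolid Nt5e rose by 0.17 ± 0.069 (adjusted p = 0.0388, limma), and by 0.46 with median-ratio scaling. For Arg C against linezolid the difference was -0.19 ± 0.069 (adjusted p = 0.0298, limma), and 0.18 and called with median-ratio scaling. The calls of these last 2 comparisons on the deposited scale were lost when cycles were averaged (adjusted p = 0.178 and adjusted p = 0.169, limma).

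Of 17 tested purine and adenosine genes, Entpd1 and Nt5e included, 15 fell and 0 rose with Arg C (median log2 fold change -0.61), beside 70% and 16.5% of all genes, and 14 fell and 1 rose with linezolid (median -0.38), beside 54.5% and 21% of all genes. The gene that rose with linezolid was Nt5e. With median-ratio scaling 8 fell and 3 rose, and 7 fell and 2 rose. Panx1, for a channel that releases ATP, was at 24.2 ± 2.99 RPKM in DMSO, 3.57 ± 1.25 with Arg C and 9.63 ± 3.85 with linezolid (SD, n = 6). The ATP receptor gene P2rx4 was at 10.1 ± 1.61 RPKM in DMSO, 1.83 ± 0.643 with Arg C and 4.11 ± 1.94 with linezolid, and Enpp1, for another ectoenzyme that cleaves ATP, at 6.61 ± 0.982 RPKM in DMSO, 2.16 ± 0.333 with Arg C and 2.85 ± 0.530 with linezolid.

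Gata3 RNA fell with division in all 3 groups. In DMSO it was 8.80 and 9.05 RPKM at cycle 2 (experiments 1 and 2), 4.61 and 4.34 at cycle 3, and 2.85 and 2.91 at cycle 4. With Arg C it was 7.75 and 13.1, 3.36 and 6.46, and 2.06 and 4.00 RPKM. With linezolid it was 9.68 and 13.8, 5.38 and 7.02, and 2.78 and 4.48 RPKM. In each of the 6 series cycle 2 was highest and cycle 4 lowest, 3.07 to 3.77 times apart. From cycle 2 to cycle 4 Gata3 fell by 1.35 ± 0.20 in DMSO (adjusted p = 0.00189, limma), by 1.50 ± 0.20 with Arg C (adjusted p = 0.000183) and by 1.46 ± 0.20 with linezolid (adjusted p = 0.000261). The course differed from that in DMSO by -0.15 ± 0.28 with Arg C (adjusted p = 0.802, limma) and -0.11 ± 0.28 with linezolid (adjusted p = 0.844).

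Gata3 was the 1 member called between cycle 4 and cycle 2 in DMSO, where 7.67% of all genes were called. With Arg C 2 members were called (32% of genes), Gata3 and Entpd1, which rose by 0.50 ± 0.13 (adjusted p = 0.0124, limma). With linezolid 3 were called (32.9% of genes), Gata3, Foxp3 and Lrrc32, all lower at cycle 4. For Lrrc32 (-0.67 ± 0.20, adjusted p = 0.02, limma) this call was lost without the linezolid sample of experiment 2 at cycle 2 (-0.36 ± 0.20, adjusted p = 0.247). From cycle 2 to cycle 3 Gata3 was the member called with Arg C (-0.96 ± 0.20, adjusted p = 0.00996, limma, against 11.9% of genes) and with linezolid (-0.81 ± 0.20, adjusted p = 0.0218, against 12.2%). The linezolid call was lost without that same sample (-0.77 ± 0.26, adjusted p = 0.141). In DMSO Gata3 differed by -0.86 ± 0.20 (adjusted p = 0.162, limma), and 0 members were called against 0.1% of genes.

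Over all cycles the Gata3 difference from DMSO was 0.076 ± 0.12 with Arg C (adjusted p = 0.542, limma), and 0.62 and called with median-ratio scaling. With linezolid Gata3 rose by 0.32 ± 0.12 (adjusted p = 0.0238, limma), and by 0.55 with median-ratio scaling (adjusted p = 0.000119). The call on the deposited scale was lost with cycles averaged (adjusted p = 0.159) and without the linezolid sample of experiment 2 at cycle 2 (0.30 ± 0.13, adjusted p = 0.0558).

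Il4 RNA was close to absent. The 18 libraries of each group held 17 Il4 reads in DMSO, 29 with Arg C and 34 with linezolid. No read was found in 8, 8 and 5 of these libraries. The samples ranged from 0.0351 over 0.0405 to 0.297 RPKM in DMSO, from 0 over 0.109 to 0.555 with Arg C and from 0.0386 over 0.238 to 0.315 with linezolid, and the groups overlapped. On recovered reads with no filter the log2 differences were 0.43 ± 0.50 (adjusted p = 0.497, limma-voom) and 1.04 ± 0.49 (adjusted p = 0.0989). Il4 exceeded the matched DMSO sample in 4 of 6 pairs with Arg C and in 6 of 6 with linezolid, differences that were not detectable by this test at this depth. The Th2 cytokine genes Il5 and Il13 were at 0.0187 and 0.235 RPKM or below in every sample.

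Of 20 other Th2 genes tested, 15 fell and 4 rose with Arg C (median log2 fold change -1.16), beside 70% and 16.5% of all genes, and 14 fell and 5 rose with linezolid (median -0.78), beside 54.5% and 21% of all genes. With median-ratio scaling 13 fell and 5 rose, and 14 fell and 6 rose. Irf4, an activation factor gene that Th2 and Th17 cells both need, was at 133 ± 29.8 RPKM in DMSO, 4.53 ± 1.26 with Arg C and 13.5 ± 3.08 with linezolid (SD, n = 6). The cytokine gene Lif was at 11.3 ± 1.90 RPKM in DMSO, 0.250 ± 0.121 with Arg C and 0.750 ± 0.248 with linezolid. Ccr4, a chemokine receptor gene of Th2 and other T cells, fell by 2.91 ± 0.14 with Arg C. Zfpm1, for a cofactor of GATA proteins, rose and was at 18.9 ± 4.88 RPKM in DMSO, 26.5 ± 5.44 with Arg C and 34.9 ± 3.63 with linezolid, and the repressor gene Gfi1 rose and was at 4.00 ± 1.59 RPKM in DMSO, 6.38 ± 4.96 with Arg C and 7.33 ± 3.51 with linezolid.

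Of 21 other regulatory T cell genes tested, 18 fell and 2 rose with Arg C (median log2 fold change -1.34), beside 70% and 16.5% of all genes, and 18 fell and 3 rose with linezolid (median -0.98), beside 54.5% and 21% of all genes. With median-ratio scaling 16 fell and 4 rose, and 13 fell and 3 rose. Tnfrsf9, for the costimulatory receptor 4-1BB, was at 169 ± 18.4 RPKM in DMSO, 4.12 ± 1.92 with Arg C and 9.70 ± 5.13 with linezolid (SD, n = 6). Il10, for an inhibitory cytokine, was at 7.49 ± 1.78 RPKM in DMSO, 1.03 ± 0.574 with Arg C and 1.05 ± 0.503 with linezolid. The costimulatory receptor gene Icos fell by 2.10 ± 0.13 with Arg C, and the inhibitory receptor gene Tigit by 1.51 ± 0.081 with linezolid. Dusp4, a phosphatase gene, rose and was at 64.8 ± 2.29 RPKM in DMSO, 88.3 ± 13.7 with Arg C and 114 ± 12.8 with linezolid.

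Of 35 tested genes that regulate Foxp3 or partner with its protein, 26 fell and 5 rose with Arg C (median log2 fold change -0.81), beside 70% and 16.5% of all genes, and 19 fell and 9 rose with linezolid (median -0.19), beside 54.5% and 21% of all genes. With median-ratio scaling 17 fell and 13 rose, and 11 fell and 15 rose. Nr4a2, a nuclear receptor gene of a family that activates Foxp3, rose. It was at 1.31 ± 0.271 RPKM in DMSO, 4.89 ± 0.553 with Arg C and 3.75 ± 0.830 with linezolid (SD, n = 6). Its relative Nr4a1 rose by 1.32 ± 0.076 with Arg C, and its relative Nr4a3 by 1.53 ± 0.17 with linezolid. Of the chromatin genes, Ezh2 rose by 0.98 ± 0.068 with Arg C, and Uhrf1 by 1.09 ± 0.083 with linezolid. Rela, an NF-κB gene, fell and was at 30.1 ± 2.65 RPKM in DMSO, 6.43 ± 1.04 with Arg C and 13.0 ± 3.78 with linezolid. Bach2, a repressor of effector genes, fell and was at 13.5 ± 0.945 RPKM in DMSO, 3.21 ± 1.00 with Arg C and 7.54 ± 2.19 with linezolid. Stat5a, which carries the IL-2 signal, fell by 1.19 ± 0.068 with linezolid.

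**Figure D2:**
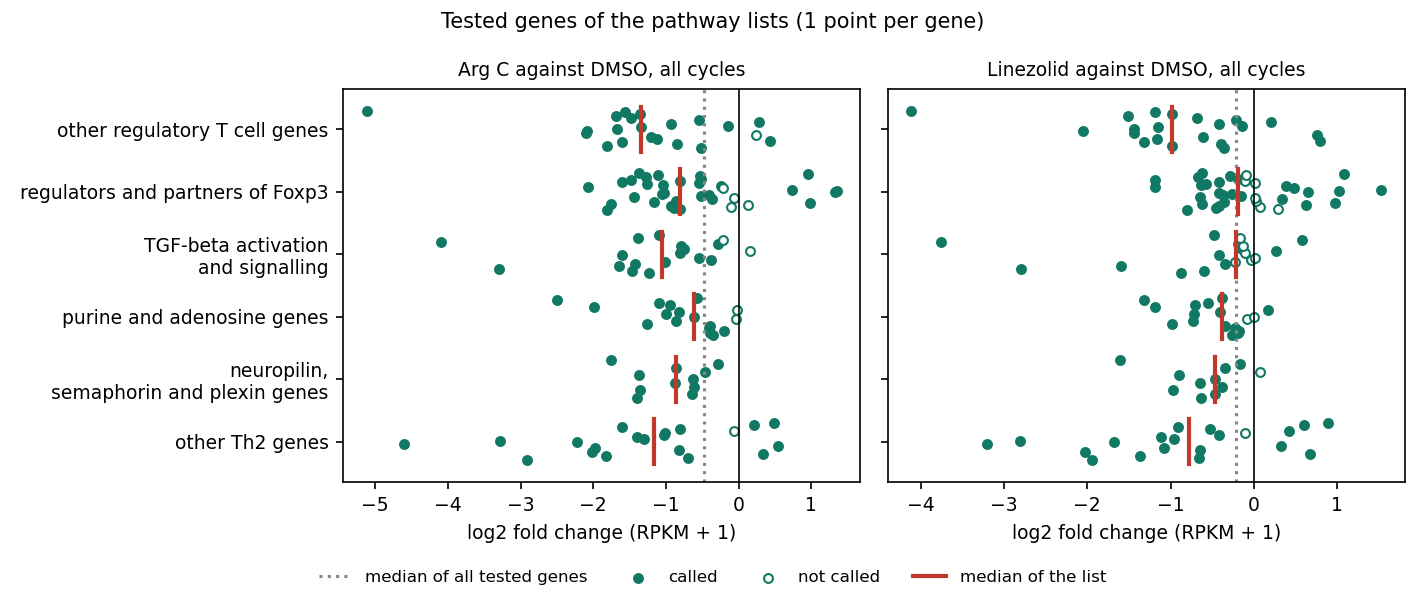
Log2 fold change (x axis, on log2(RPKM + 1), all cycles) of each tested gene of the lists (rows, which share some genes and include members) with Arg C and with linezolid against DMSO, with list medians and a line for the median of all tested genes. Most regulatory T cell and Th2 genes lie left of 0, with list medians of -1.34 and -1.16 for Arg C.

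**Figure D3:**
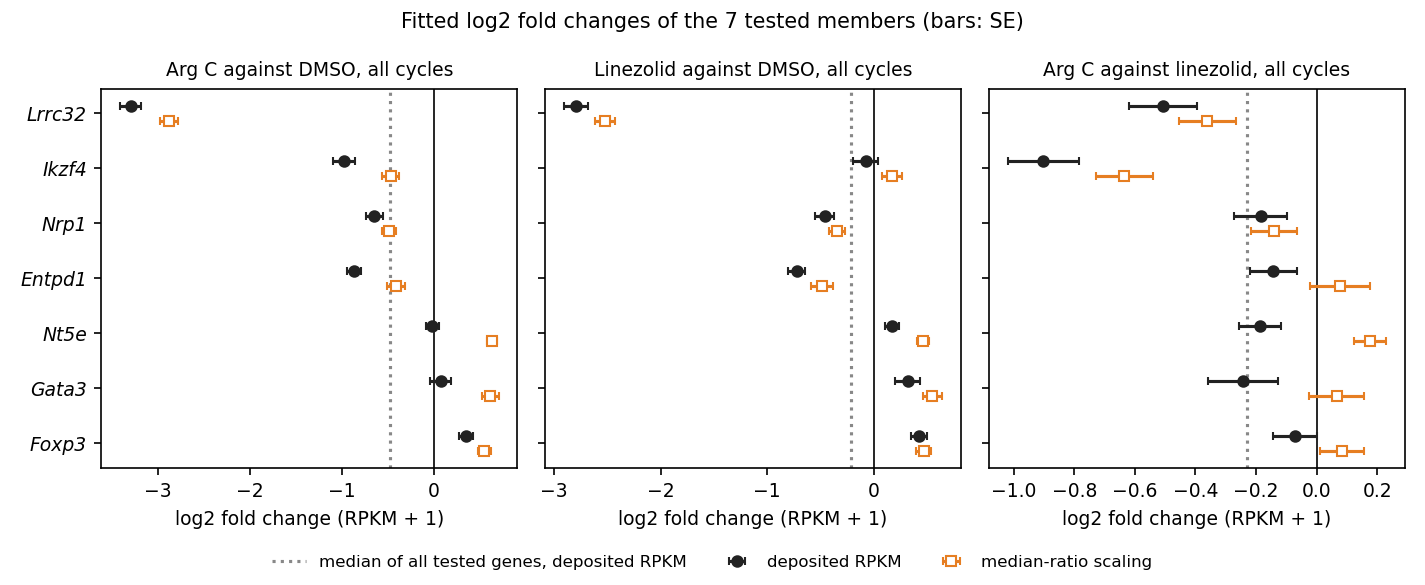
Log2 fold change with SE (x axes, on log2(RPKM + 1)) of the 7 tested members in the comparisons between drugs over all cycles, on deposited RPKM and with median-ratio scaling. Lrrc32 lies at -3.30 and -2.79 against DMSO, and Nt5e moves from -0.016 to 0.64 with Arg C under the other scaling.

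The size of several drug differences depended on the experiment. The Arg C difference changed between experiments in 5 of 7 members, where 35.7% of all genes were called, and the linezolid difference in 4, where 44.3% were called. The difference between Arg C and linezolid was called to change in 0 members (3.41% of genes) on the deposited scale. With median-ratio scaling it was called for Entpd1 (-0.43, adjusted p = 0.0239, limma) and Gata3 (0.33, adjusted p = 0.0405), and on recovered reads for Entpd1 (-0.71 ± 0.11, adjusted p = 0.00568, limma-voom). For Ikzf4 the Arg C difference was -1.32 ± 0.097 in experiment 1 and -0.63 ± 0.081 in experiment 2 (interaction adjusted p = 0.000436, limma), and the linezolid difference -0.37 ± 0.097 and 0.21 ± 0.081 (adjusted p = 0.000792). Gata3 differed by -0.29 ± 0.090 and 0.44 ± 0.066 with Arg C, called in both with opposite signs (interaction adjusted p = 0.000207, limma), and by 0.093 ± 0.090 and 0.54 ± 0.066 with linezolid (adjusted p = 0.00151). Nrp1 was at -0.84 ± 0.067 and -0.45 ± 0.072 with Arg C and at -0.73 ± 0.067 and -0.19 ± 0.072 with linezolid, closer to 0 in experiment 2. Lrrc32 with linezolid was at -3.12 ± 0.098 and -2.47 ± 0.15, and Entpd1 with Arg C at -0.70 ± 0.11 and -1.04 ± 0.075. Nt5e with Arg C was at -0.19 ± 0.094 and 0.16 ± 0.063, a change that was not called with median-ratio scaling (0.12, adjusted p = 0.31, limma).

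**Figure D4:**
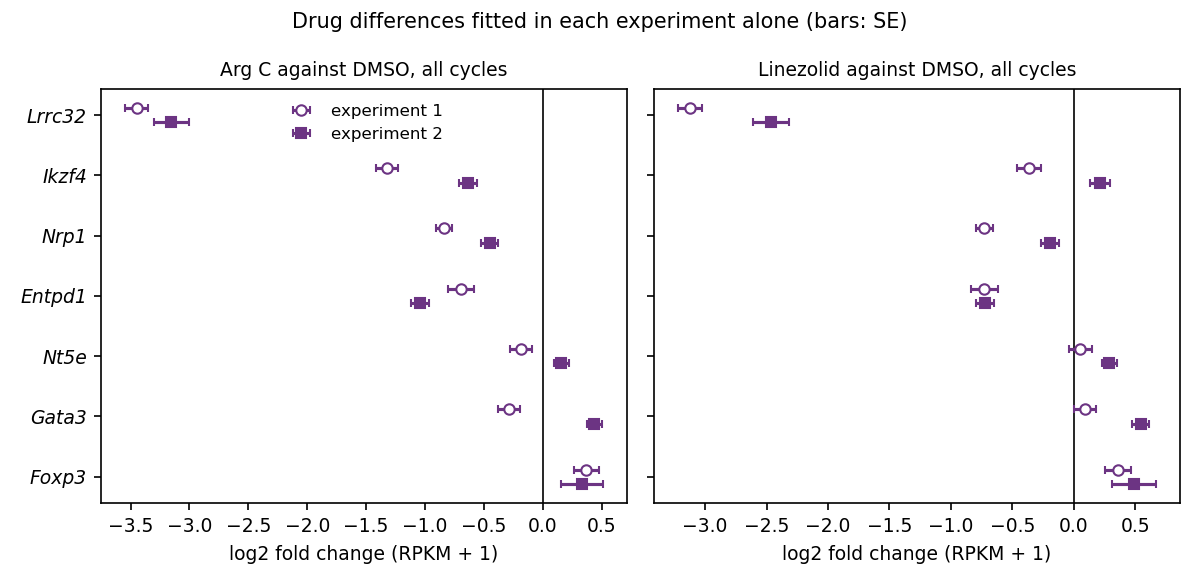
Log2 differences from DMSO with SE (x axes, on log2(RPKM + 1)) of the 7 tested members fitted in experiment 1 and in experiment 2 alone, 9 samples each, for Arg C and linezolid. The SE comes from division fractions of the same treated cells and not from independent replicates. Gata3 and Nt5e with Arg C and Ikzf4 with linezolid lie on opposite sides of 0 in the 2 experiments, and Lrrc32 lies far left of 0 in both.

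Levels at matched drug and cycle differed between experiments in 4 of 7 members, against 33.2% of all genes. Entpd1 was lower in experiment 2 (-0.73 ± 0.063, adjusted p = 3.16e-05, limma), in DMSO at 2.61 ± 0.123 RPKM against 4.53 ± 0.304 (SD, n = 3). Averaged over the drugs, Ikzf4, Lrrc32 and Gata3 were higher in experiment 2, by 0.48 ± 0.096, 0.47 ± 0.092 and 0.39 ± 0.094. The Gata3 difference lay in the drug-treated samples. In experiments 1 and 2 its means were 5.42 and 5.44 RPKM in DMSO, 4.39 and 7.84 with Arg C, and 5.95 and 8.42 with linezolid. Ikzf4 in DMSO was at 5.75 ± 0.503 and 6.01 ± 0.235 RPKM in experiments 1 and 2, and with linezolid at 4.26 ± 0.689 and 7.15 ± 0.655. Mice, culture and sequencing of an experiment cannot be told apart.

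The genes most like each tested member over the 18 samples, by Pearson r of log2(RPKM + 1) among genes of at least 5 RPKM on average, are given as a description, since the samples share drugs, cycles and experiments. For Foxp3 they were Hmgn2 (0.88) and Ddb2 (0.85), for Ikzf4 Cyld (0.99) and Ralgapb (0.98), and for Lrrc32 Pank2 (0.996) and Tnfrsf9 (0.99). For Nrp1 they were Becn1 (0.97) and Gpr171 (0.97), for Entpd1 Chmp4b (0.96) and Fanci (0.95), and for Gata3 Cd7 (0.96) and H2-Q6 (0.94). Nt5e was less like any gene, with Rcbtb2 (0.72) at the top. Between members r was 0.92 for Lrrc32 and Nrp1 and -0.64 for Foxp3 and Entpd1.

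Bulk values cannot tell fewer cells of a type from less RNA per cell. The 12 T cell markers summed to 1532 to 1770.2 RPKM in DMSO, 1110.1 to 1470.3 with Arg C and 1366 to 1856 with linezolid, with Trac, Trbc1 and Trbc2 listed at 0. The 11 regulatory T cell markers, 5 of them members, summed to 559.8 to 608, 204 to 260.1 and 223 to 347 RPKM. Members gave a small part of the DMSO sum, with Lrrc32 the most abundant of the 5 at 12.2 to 15.4 RPKM. Foxp3, also among them, rose with both drugs. The 8 Th2 markers, with Gata3 and Il4, summed to 28.7 to 35.7, 4.31 to 17.9 and 6.97 to 28.3 RPKM. Of these Ccr4 was at 18.8 ± 1.88 RPKM in DMSO, 1.64 ± 0.368 with Arg C and 4.35 ± 1.72 with linezolid (SD, n = 6). The Gata3 means were 5.43, 6.11 and 7.18 RPKM. The 11 markers of mast cells, basophils and innate lymphoid cells, other sources of Il4 and Gata3, summed to 48.9 to 73.3, 6.61 to 18.3 and 13.0 to 48.2 RPKM. Most of that sum was Il7r, which T cells also express, and the basophil protease gene Mcpt8 was at 0.0718 RPKM or below. The 14 myeloid and dendritic markers summed to 84.2 to 121, 32.9 to 47.4 and 33.9 to 39.5 RPKM, largely H2-Ab1 in DMSO (66.5 to 97.1), with Lyz2 at 0.0593 or below and Siglech and Clec9a at 0. The 8 B cell markers summed to 0.750 to 4.23, 0.236 to 0.656 and 0.310 to 2.24 RPKM. The part of these sums in the differences above was not tested.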

How the data were processed

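RNA sequencing covered 18 samples with 3 technical replicates each, and these 54 replicates are called libraries here. The authors deposited 1 table with no stated unit, whose values were read as RPKM because whole reads could be recovered for 19283 of 19284 genes with any value (tolerance 0.0001 read), with library totals of 7999811 to 12495908 reads. CASAVA and the build GRCm38.p5 appear in the submitters' processing notes. The sources used here give no aligner, counting tool, annotation or strand. Technical replicates of the members spread about as counting alone predicts (chi-square over degrees of freedom 0.910 to 1.35, Il4 left out for few reads) and were averaged.

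Fits used limma 3.58.1 (R 4.3.3; lmFit and trended eBayes) on log2(RPKM + 1), pseudocount 1. Each combination of drug and cycle had its coefficient, and the experiment, named in the labels, was a block (8 residual degrees of freedom, 6 with drug by experiment terms). P-values were adjusted over 11004 genes, and they measure only the spread between these samples. The scripts were tested on simulated data. Alternatives were another pseudocount, other filters, median-ratio and upper-quartile scaling, no trend, limma-voom on recovered reads, no experiment block, cycles averaged, libraries as replicates, only the groups compared, and experiments, replicates or 1 sample left out.

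The members and lists were chosen with earlier results of these data known. Genes named from a list are among the 3 called higher and 3 called lower with the largest change in either drug, at a mean of at least 1 RPKM. Il17a, Il5, Il13, Trac, Trbc1, Trbc2, Mcpt8, Lyz2, Siglech and Clec9a were named as markers after their values were seen. Promoters came from RefSeq (GRCm38.p6) and gene overlaps from GENCODE M21.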

Additional observations from a re-analysis of the deposited data

Results flagged for a closer look

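The linezolid sample of experiment 2 at cycle 2 lay far above the other 5 linezolid samples for Foxp3 (1.65 RPKM) and for Lrrc32 (3.21 RPKM). Chance flags about 1 in 20 such groups, and 27 groups of 6 samples were looked at. The 6 samples of a group differ in cycle and experiment by design.

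The Foxp3 change from cycle 2 to cycle 4 differed between linezolid and DMSO by -0.83 on the log2 scale. The Arg C difference from DMSO changed between experiments 1 and 2 for Gata3 (0.73), Ikzf4 (0.69), Nrp1 (0.39), Nt5e (0.34) and Entpd1 (-0.35), given as the log2 difference in experiment 2 minus that in experiment 1. With linezolid it changed for Lrrc32 (0.65), Ikzf4 (0.58), Nrp1 (0.54) and Gata3 (0.45). Each passed the test of the difference itself in limma. The tests between experiments rest on fractions of the same treated cells, with no independent replicates of a drug within an experiment.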

How the results depend on the processing

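For the 7 tested members, 327 values of the comparisons between drugs over all cycles kept their direction and side of the threshold under the alternatives run, 17 lost the call, 14 gained one and 7 reversed (550, 36, 20 and 3 in the other comparisons), and 30 changed sign with no call in either fit. Ikzf2 and Il4, not tested, are outside these counts. Of their values over all cycles, 8 and 6 moved by at least the residual spread between samples, and 4 and 6 did not. With Arg C against DMSO, Nt5e reversed to 0.64 with median-ratio scaling (0.59 at cycle 3, 0.47 at cycle 4), 0.68 with upper-quartile scaling and 0.16 without experiment 1 (-0.19 without experiment 2), and Gata3 to -0.29 without experiment 2 (0.44 without experiment 1). With Arg C against linezolid, Nt5e reversed to 0.18 and 0.23 with these scalings (0.31 at cycle 2 with median-ratio scaling), and with linezolid against DMSO, Ikzf4 to 0.21 without experiment 1 (-0.37 without experiment 2). The cause was not tested.

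Among all genes, cycle 3 against cycle 2 in DMSO called 11, with 1 at a pseudocount of 0.1, 7 with median-ratio scaling, 0 with limma-voom (768 at an unadjusted p under 0.05) and 4 with no experiment block. The linezolid course against DMSO called 593, 378 with limma-voom and 0 with no experiment block. With no experiment block the Arg C course called 100, Arg C against linezolid 1782 at cycle 3 and 1983 at cycle 4, and cycles 3 and 4 against cycle 2 called 541 and 2240 with Arg C and 407 and 2087 with linezolid, and cycle 4 in DMSO 293. When an experiment or a technical replicate was left out, Arg C against DMSO called 8746 to 9454, linezolid against DMSO 6902 to 8176 and Arg C against linezolid 4702 to 7244, the last 4702 without experiment 2 and 4050 with cycles averaged.

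With the 54 libraries as replicates and a replicate block, these 3 comparisons called 10175, 9548 and 8937 genes, and Nrp1, Entpd1 and Gata3 were also called lower with Arg C than with linezolid (-0.18, -0.14 and -0.24). Depth limits Il4, Ikzf2, Nrp1 and Foxp3, whose shallowest samples held 0, 5, 7 and 22 reads.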
